A study of Mus musculus with 6 samples.

Results

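The globin genes of the mouse, together with Alas2 and Slc4a1 as genes of red cells, were followed in RNA of sorted neural crest cells (NCCs). The 9 genes were found by their symbols, through the Ensembl identifiers of 46983 genes in the table of counts, 46488 of which have a name in GENCODE mouse release M21, and all 9 were present. RNA came from GFP+ cells sorted by FACS from E11.25 embryos, with 3 control and 3 BAF155/170-deficient libraries and cells of 3 embryos of each genotype. Every embryo carried Wnt1Cre/+ and the Rosa26 mTmG/+ reporter, in which Cre switches on GFP. Control embryos had one floxed copy each of the genes for BAF155 and BAF170 (flox/+ at both), and deficient embryos had floxed copies only (flox/flox at both), so a control has already lost one copy of each gene in its Cre-positive cells. BAF155 and BAF170 are core subunits of the BAF chromatin remodeling complex. Wnt1 Cre is also active in dorsal neural stem cells, which limits the sort as a source of NCCs alone.

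Haemoglobin is built from alpha-like and beta-like globin chains, and each globin locus is switched during development. Primitive red cells, which arise in the yolk sac and circulate at midgestation, use the embryonic chains of Hba-x (zeta), Hbb-y (epsilon-y) and Hbb-bh1 (beta-h1). Definitive red cells from the fetal liver use the adult chains of Hba-a1, Hba-a2, Hbb-bs and Hbb-bt. Shares of these chains are given below as ratios of genes, not as a measure of primitive against definitive cells. Alas2 encodes the erythroid form of the first enzyme of haem synthesis, and Slc4a1 encodes band 3, the anion exchanger of the red cell membrane.

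In GRCm38 the alpha-like genes lie on the plus strand of chromosome 11, with Hba-x (ENSMUSG00000055609.8, chr11:32276400-32278116) ahead of Hba-a1 (ENSMUSG00000069919.7, chr11:32283511-32284465) and Hba-a2 (ENSMUSG00000069917.7, chr11:32296489-32297298). The beta-like genes lie on the minus strand of chromosome 7, where Hbb-y (ENSMUSG00000052187.3, chr7:103851749-103853216) is followed by Hbb-bh1 (ENSMUSG00000052217.5, chr7:103841637-103843164), Hbb-bs (ENSMUSG00000052305.5, chr7:103826534-103828096) and Hbb-bt (ENSMUSG00000073940.3, chr7:103812524-103813996). In both loci the embryonic genes are thus the first on the strand that is transcribed.

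How well a read can be given to one globin gene differs between embryonic and adult members. The coding sequences of Hbb-bs and Hbb-bt, of 444 bases each, differ by 1 base, and those of Hba-a1 and Hba-a2, of 429 bases each, also differ by 1 base. The 41 coding bases around each difference are shown 5′ to 3′ because that base, in capitals, is all that tells the copies apart within the coding sequence. They run from position 397 to 437 in the beta pair, with C417T from Hbb-bs to Hbb-bt, and from 361 to 401 in the alpha pair, with C381T from Hba-a1 to Hba-a2, counted from 1 at the first base of the start codon of the annotated transcript.
Hbb-bs: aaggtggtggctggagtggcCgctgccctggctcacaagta
Hbb-bt: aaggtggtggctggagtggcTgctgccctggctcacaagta
Hba-a1: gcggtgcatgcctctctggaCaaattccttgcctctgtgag
Hba-a2: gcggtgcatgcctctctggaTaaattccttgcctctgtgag

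Of all 100-base windows of the transcripts, 62.6% of those of Hbb-bs, 54.8% of Hbb-bt, 56.5% of Hba-a1 and 74.5% of Hba-a2 occurred in another globin gene. None of the 100-base windows of Hba-x, Hbb-bh1 or Hbb-y did. The coding sequence of Hbb-y was 74.3% identical to that of Hbb-bs, and that of Hba-x was 62.0% identical to that of Hba-a1. Counts of the embryonic genes can therefore be read gene by gene, while the split of counts within each adult pair is uncertain. How the counting handled reads with several matches is not given in the sources used here. If such reads were dropped, the adult totals would be too low as well, and the embryonic shares too high in every library.

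The promoters of both globin loci were read from RefSeq (GRCm38.p6), which held a sequence for 7 of the 9 members. The 120 bases up to the annotated start are shown for an embryonic and an adult gene of each locus, since these are the pairs compared in what follows. Capitals mark 4 motifs, namely the letters CACCC of the CACCC box, the letters CCAAT of the CCAAT box, the letters GATAA of a GATA motif and the letters TATAA of a TATA box. Both strands were searched, and no matches overlap in these 4 stretches. CACCC boxes are bound by Klf-family factors and GATAA motifs by GATA factors.
Hbb-y (chr7:103853208-103853327, minus strand): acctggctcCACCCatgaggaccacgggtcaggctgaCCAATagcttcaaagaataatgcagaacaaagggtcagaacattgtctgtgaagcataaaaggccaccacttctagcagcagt
Hbb-bs (chr7:103827929-103828048, minus strand): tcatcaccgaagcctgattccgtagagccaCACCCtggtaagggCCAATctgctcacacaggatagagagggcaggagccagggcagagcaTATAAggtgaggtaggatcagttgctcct
Hba-x (chr11:32276480-32276599, plus strand): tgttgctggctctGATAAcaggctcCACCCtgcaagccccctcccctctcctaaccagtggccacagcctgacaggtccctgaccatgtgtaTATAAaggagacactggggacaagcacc
Hba-a1 (chr11:32283552-32283671, plus strand): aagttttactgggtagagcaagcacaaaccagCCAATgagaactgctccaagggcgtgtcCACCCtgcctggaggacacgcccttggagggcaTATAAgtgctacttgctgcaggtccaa

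All 4 promoters held a CACCC match, which 31.7% of 32851 mouse promoters hold in the same 120 bases. CCAAT was found in Hbb-y, Hbb-bs and Hba-a1 (21.3% of all promoters), TATAA in Hbb-bs, Hba-x and Hba-a1 (11.8%) and GATAA only in Hba-x among these 4 (10.5%). The promoter of Hba-a2 matched that of Hba-a1 in 297 of 297 overlapping bases. No motif set apart the embryonic from the adult promoter in both loci.

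Counts on genes summed to between 8191219 and 11661941 in the control libraries and between 12633319 and 19808620 in the deficient libraries. A gene was called with the thresholds of the study's methods, which ask for an adjusted p up to 0.1, a log2 fold change of 0.58 or more in size and a mean level from 2 counts scaled to library size (CPM) upward. Smarcc1, the gene for BAF155, had 42.1, 55.0 and 35.1 CPM in control replicates 1, 2 and 3 against 29.4, 26.4 and 24.5 CPM in deficient replicates 1 to 3, a log2 fold change of −0.71 (edgeR quasi-likelihood test, Benjamini-Hochberg adjusted p = 0.0676). Smarcc2, the gene for BAF170, had 89.9 to 92.9 CPM across the control libraries against 82.3 to 86.8 CPM in the deficient libraries (log2 fold change −0.11, edgeR, Benjamini-Hochberg adjusted p = 0.251). The libraries labelled NCCs held far more RNA of macrophage markers than of crest markers. The 12 macrophage markers, such as Lyz2 and C1qb, summed to between 11889 and 15144 CPM, while 16 markers of mesenchymal crest, such as Prrx1 and Twist1, summed to between 125 and 317 CPM. No marker of either list was at 0 in every library.

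Red cell RNA was scarce in every library. The 9 members together took 0.00171% to 0.00682% of a library's counts, a summed level of 31.1, 74.8 and 22.7 CPM in control replicates 1, 2 and 3 against of 24.3, 17.3 and 21.8 CPM in deficient replicates 1 to 3. Control replicate 2 was high, and the other control libraries lay near the range of the deficient ones, with overlapping groups. The means were 42.8 ± 28.0 CPM in controls and 21.1 ± 3.55 CPM in deficient libraries (SD, n = 3 each). Without control replicate 2 the difference of the means, deficient minus control, was −5.72 CPM in place of −21.7 CPM. In bulk RNA, fewer cells of a type and less RNA per cell cannot be told apart.

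All 3 embryonic globins had lower mean levels in deficient libraries, and none was called by edgeR, which called 4.94% of 13961 genes tested, while DESeq2 called Hbb-y and Hbb-bh1 and limma-voom called Hbb-y. Hbb-y, the most abundant of them, had 9.47, 24.3 and 5.66 CPM in control replicates 1, 2 and 3 against 3.60, 2.20 and 3.37 CPM in deficient replicates 1 to 3. Every deficient value lay below every control value, and groups did not overlap in 31.4% of all genes tested. The means of 13.2 ± 9.87 and 3.06 ± 0.752 CPM (SD, n = 3 each) gave a fitted difference of 4.21-fold lower, a log2 fold change of −2.07 (standard error 0.60, edgeR, Benjamini-Hochberg adjusted p = 0.106).

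Hba-x, the embryonic alpha-like chain, had 4.79, 18.9 and 3.53 CPM across the control libraries against 3.29, 1.41 and 2.42 CPM in the deficient libraries. The groups did not overlap here either, although control replicate 3 and deficient replicate 1 were close, at 43 and 42 counts. The log2 fold change was −1.90 (standard error 0.76, edgeR, Benjamini-Hochberg adjusted p = 0.182).

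Hbb-bh1, the other embryonic beta-like chain, had 3.72, 7.36 and 1.40 CPM across the control libraries against 1.57, 0.489 and 1.57 CPM in the deficient libraries. Control replicate 3, with 17 counts, lay among the deficient libraries, so the groups overlapped. The log2 fold change was −1.73 (standard error 0.64, edgeR, Benjamini-Hochberg adjusted p = 0.138). In all 3 genes control replicate 2 was the highest library and control replicate 3 the lowest control.

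**Figure D1:**
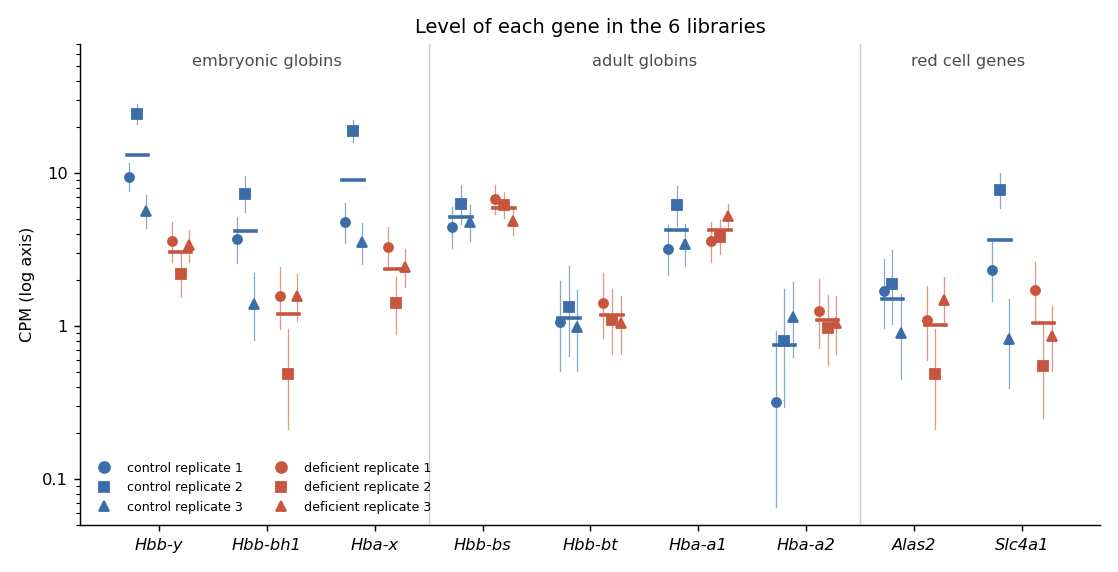
Level of the 9 genes in counts scaled to library size (CPM, log axis) in each of 3 control and 3 deficient libraries; symbols mark the replicate, thin lines the exact Poisson 95% interval of the count, which covers counting error only, and thick bars the group mean. The control libraries lie above the deficient ones in Hbb-y and Hba-x, and the groups overlap in the other 7 genes.

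None of the 4 adult globins was called by edgeR, DESeq2 or limma-voom, and their groups overlapped. Hbb-bs, which held most of the adult beta counts, had 4.47, 6.29 and 4.76 CPM across the control libraries against 6.74, 6.23 and 4.84 CPM in the deficient libraries. The highest and the lowest library were a deficient and a control one, and the means of 5.17 ± 0.978 and 5.94 ± 0.980 CPM (SD, n = 3 each) gave a log2 fold change of 0.20 (standard error 0.22, edgeR, Benjamini-Hochberg adjusted p = 0.592). Hbb-bt, its near-identical neighbour, had 1.06, 1.34 and 0.985 CPM across the control libraries against 1.41, 1.10 and 1.04 CPM in the deficient libraries (log2 fold change 0.07, standard error 0.39, edgeR, Benjamini-Hochberg adjusted p = 0.923).

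Hba-a1 had 3.19, 6.15 and 3.45 CPM across the control libraries against 3.60, 3.85 and 5.22 CPM in the deficient libraries, with overlapping groups and a log2 fold change of 0.02 (standard error 0.29, edgeR, Benjamini-Hochberg adjusted p = 0.970). Hba-a2 had 0.319, 0.803 and 1.15 CPM across the control libraries against 1.25, 0.978 and 1.04 CPM in the deficient libraries. Its lowest value rests on 3 counts in control replicate 1, and its log2 fold change was 0.48 (standard error 0.48, edgeR, Benjamini-Hochberg adjusted p = 0.556). With the counts of each pair of copies summed, an alternative chosen after seeing the data, the log2 fold change was 0.11 for the alpha pair and 0.18 for the beta pair, close to the values of the single genes with the most counts.

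Of the red cell genes that are no globins, Slc4a1 (ENSMUSG00000006574.15, chr11:102348824-102366203, minus strand) had 2.34, 7.76 and 0.821 CPM across the control libraries against 1.72, 0.550 and 0.855 CPM in the deficient libraries. The highest library was control replicate 2, as in the embryonic globins, and control replicate 3 lay among the deficient libraries. The log2 fold change was −1.77 (standard error 0.84, edgeR, Benjamini-Hochberg adjusted p = 0.228). Alas2 (ENSMUSG00000025270.13, chromosome X of GRCm38 from 150547375 to 150570638, plus strand) had 1.70, 1.87 and 0.903 CPM across the control libraries against 1.10, 0.489 and 1.47 CPM in the deficient libraries, with a log2 fold change of −0.49 (standard error 0.48, edgeR, Benjamini-Hochberg adjusted p = 0.543). It shares 311 exon bases with Apex2 on the opposite strand. The kit was strand-specific, but the strand setting of the counting is not given in the sources used here, so reads of Apex2 may be included.

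All 9 members passed the filter on low counts, and 0 were called by edgeR. Of all genes tested, 4.88% were called lower and 0.0573% higher. Hbb-bt, Hba-a2 and Alas2 had means under 2 CPM and could not be called whatever their change. At an unadjusted p under 0.05 there were 3 members, namely Hbb-y, Hba-x and Hbb-bh1, against 27.3% of all genes. DESeq2 called 3 members on the same thresholds and 6.35% of all genes. The members were Hbb-y (Benjamini-Hochberg adjusted p = 0.0234), Hbb-bh1 (0.0319) and Slc4a1 (0.0617). limma-voom called 1, Hbb-y (Benjamini-Hochberg adjusted p = 0.0895), and 5.99% of all genes. Groups did not overlap in 2 of the 9 members, against 31.4% of all genes tested. The members' median log2 fold change was −0.49, with −1.90 for the 3 embryonic and 0.14 for the 4 adult globins, against −0.018 for all genes tested and −0.15 for the 8102 genes with a mean of 1 to 20 CPM.

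Which libraries enter decides whether the embryonic globins are called. Without control replicate 3, edgeR called Hbb-y (log2 fold change −2.45, Benjamini-Hochberg adjusted p = 0.0175), Hbb-bh1 (−2.17, adjusted p = 0.0196), Hba-x (−2.31, adjusted p = 0.0769) and Slc4a1 (−2.29, adjusted p = 0.0368), among 8.63% of all genes tested. Without control replicate 2 the log2 fold changes were smaller, −1.30 for Hbb-y, −1.05 for Hbb-bh1, −0.81 for Hba-x and −0.60 for Slc4a1, and 0 members and 0.426% of all genes tested were called. Their sign stayed below 0 in each fit that left out a library, while that of Hba-a1 and Hbb-bt changed.

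**Figure D2:**
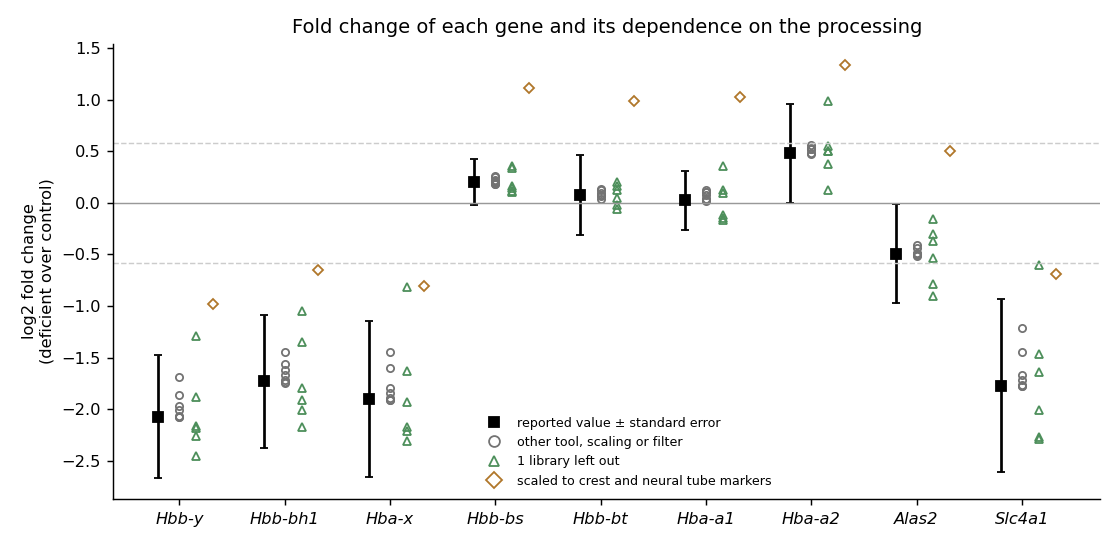
Log2 fold change of deficient over control libraries for the 9 genes, with its standard error, beside its values under other tools, scalings and filters, with 1 library left out, and with libraries scaled to crest and neural tube markers; dashed lines mark a size of 0.58. The 3 embryonic globins and Slc4a1 lie below 0 in all of these fits, and the 4 adult globins lie between −0.17 and 1.34.

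Setting embryonic against adult chains within a library removes the depth and the scaling of that library. Hbb-y and Hbb-bh1 together made 70.5%, 80.6% and 55.1% of the counts of the 4 beta-like genes in control replicates 1 to 3. In deficient replicates 1 to 3 they made 38.8%, 26.8% and 45.6%. All control shares were above all deficient shares, with means of 68.7% ± 12.8 and 37.1% ± 9.51 (SD, n = 3 each). Exact binomial 95% intervals, which cover counting error only, reached from 47.0% to 63.1% for the lowest control and from 39.0% to 52.3% for the highest deficient library, so these neighbours were not separated by counting alone.

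Hba-x made 57.7%, 73.1% and 43.4% of the alpha-like counts in the controls and 40.4%, 22.5% and 27.9% in the deficient libraries. The groups again did not overlap, with control replicate 3 and deficient replicate 1 apart by less than their exact 95% intervals (33.5% to 53.8% and 30.9% to 50.5%). The means were 58.1% ± 14.8 and 30.3% ± 9.16 (SD, n = 3 each). The shares rested on 156 to 294 beta-like and 78 to 193 alpha-like counts per library. No test was made on them, and an exact permutation test of 3 against 3 libraries cannot go below a p of 0.1.

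Dividing counts by exon length corrects for length, but not for how reads shared between adult copies were counted. The embryonic share of beta-like chains was then 72.4% ± 12.0 in controls and 41.4% ± 9.97 in deficient libraries. That of alpha-like chains was 54.0% ± 15.5 and 26.5% ± 8.33 (SD, n = 3 each). The difference between the group means stayed between −38.4 and −25.7 percentage points for the beta-like chains when any 1 library was left out, and between −35.1 and −20.3 for the alpha-like chains.

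The balance of alpha-like to beta-like chains overlapped between the groups. Alpha-like genes made 30.7%, 39.6% and 38.8% of all globin counts in the controls and 38.0%, 38.3% and 44.5% in the deficient libraries. Shares between genes of one stage overlapped as well. Hbb-bh1 made 19.8% to 28.2% of the embryonic beta-like counts in controls and 18.2% to 31.7% in deficient libraries, and Hbb-bs made 80.8% to 82.9% and 82.3% to 85.0% of the adult beta-like counts. For Hba-a1 the share of adult alpha-like counts was 75.0% to 90.9% in controls and 74.2% to 83.3% in deficient libraries.

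**Figure D3:**
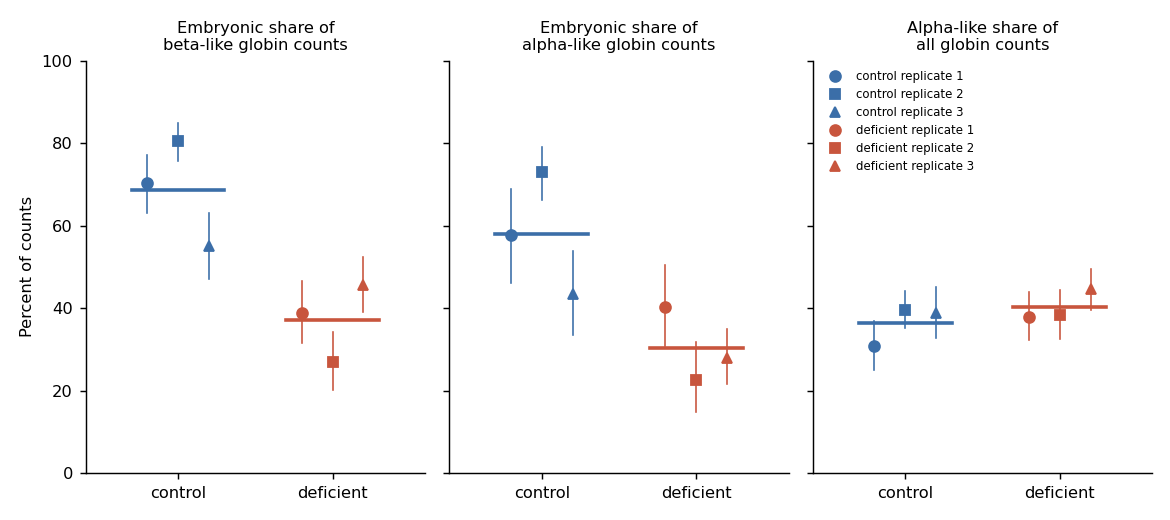
Percent of counts in each of 3 control and 3 deficient libraries for the embryonic share of beta-like globins (Hbb-y and Hbb-bh1), the embryonic share of alpha-like globins (Hba-x) and the alpha-like share of all globins; vertical lines are exact binomial 95% intervals and thick bars group means. The lowest control and the highest deficient library are at 55.1% and 45.6% for the beta-like and at 43.4% and 40.4% for the alpha-like genes, and the alpha-like share of all globins overlaps between the groups.

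The order of the levels per exon length differed between the groups. Adult globins would stand too low in both groups if reads shared between copies were dropped. In controls the mean level per kilobase of exon was 20.8 ± 15.6 CPM for Hbb-y, 9.66 ± 9.08 for Hba-x, 6.78 ± 4.90 for Hbb-bh1, 6.73 ± 1.27 for Hbb-bs and 5.25 ± 2.02 for Hba-a1 (SD, n = 3 each), and each of the first 4 overlapped with the next over its libraries. Hbb-bt, Hba-a2, Slc4a1 and Alas2 followed, at 1.61, 1.13, 0.744 and 0.621 CPM per kilobase. In deficient libraries Hbb-bs came first, at 7.73 ± 1.28 CPM per kilobase, ahead of Hba-a1 at 5.20 ± 1.07 and Hbb-y at 4.83 ± 1.19 (SD, n = 3 each). Hba-x and Hbb-bh1 followed at 2.53 and 1.97 CPM per kilobase, and Alas2 and Slc4a1 were again the lowest, at 0.424 and 0.213. Neighbours in the order overlapped in both groups, except for Hba-a1 over Hbb-bt in the controls and Hba-a2 over Alas2 in the deficient libraries.

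The other genes of the globin loci were not detectable above background at this depth. Hbq1a and Hbb-bh3 had 0 counts in each library, which allows up to 0.151 to 0.366 CPM per library at 3 counts. Hbb-bh0, Hbb-bh2 and Hbq1b had at most 1 count in a library.

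Among 14 erythroid transcription factors, 10 were tested and 1 was called lower, as were 4.88% of all genes tested. Bcl11a, a repressor of embryonic globin genes in definitive red cells that is also expressed in neurons, had a mean of 15.2 CPM in controls and 4.55 CPM in deficient libraries, with groups that did not overlap (log2 fold change −1.74, standard error 0.26, edgeR, Benjamini-Hochberg adjusted p = 0.0408). The gene was no longer called when control replicate 1 was left out (edgeR, Benjamini-Hochberg adjusted p = 0.214) or deficient replicate 3 was (adjusted p = 0.114). These fits called 0 of 14318 and 17 of 14280 genes tested (0.119%), so few genes of any kind kept a call. The median log2 fold change of the 10 was −0.018, the same as for all genes tested. The defining factors of red cells were near 0. Gata1 had 1 to 5 counts and Klf1 0 to 3 counts per library, and neither passed the filter. Tal1 and Lmo2, also used by other blood cells, had means of 32.1 and 28.0 CPM in controls and 35.1 and 30.7 CPM in deficient libraries.

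Of 17 genes of the red cell membrane and skeleton, 10 were tested, 2 were called lower and 0 higher. In the same fit 4.88% of all genes tested were called lower and 0.0573% higher. For Epb41, which encodes an erythrocyte membrane band protein, the log2 fold change was −0.74 (standard error 0.16, edgeR, Benjamini-Hochberg adjusted p = 0.0701). For Add2, which encodes beta-adducin, it was −1.75 (standard error 0.32, edgeR, adjusted p = 0.0483). Both are also known from neurons. Without control replicate 1 or without deficient replicate 3 both calls were lost (edgeR, Benjamini-Hochberg adjusted p from 0.161 to 0.236). Of all genes tested, 0 and 0.119% were called in these fits. Without control replicate 2 and without deficient replicate 2, the call of Epb41 was lost as well, where 0.426% and 1.84% of all genes were called. The median of the 10 was −0.52, and 8 of 10 lay below 0, against 52.3% of all genes tested. Most of the 10 had a mean of 1 to 20 CPM. Of all 8102 genes in that range, 67.0% lay below 0, with a median of −0.15.

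No gene of the haem lists was called. Of all genes tested, 4.94% were called and 27.3% had an unadjusted p under 0.05. In haem synthesis 13 of 14 genes were tested and 0 were called by edgeR (1 at an unadjusted p under 0.05, 0 by DESeq2 and by limma-voom), with a median of 0.0032. Alas1, the form of the first enzyme used outside red cells, had means of 196.9 and 226.6 CPM in controls and deficient libraries (log2 fold change 0.20, edgeR, Benjamini-Hochberg adjusted p = 0.107). The mitochondrial carriers Slc25a37 and Slc25a39 had log2 fold changes of 0.13 and 0.0032.

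In haem uptake and breakdown 12 of 13 genes were tested and 0 were called by edgeR (3 at an unadjusted p under 0.05, 0 by DESeq2 and by limma-voom), with 10 of 12 above 0 and a median of 0.11. Hmox1, the inducible haem oxygenase, had means of 434 and 502 CPM (log2 fold change 0.21, edgeR, Benjamini-Hochberg adjusted p = 0.113). Lrp1, a receptor that takes up haem bound to haemopexin, had a log2 fold change of −0.07 and Nfe2l2, a factor that switches on Hmox1, of 0.24, which passed the threshold on p (edgeR, Benjamini-Hochberg adjusted p = 0.0763) but not that on size.

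Of 14 other erythroid genes 6 were tested and 0 were called by edgeR, DESeq2 or limma-voom. At an unadjusted p under 0.05 there were 2, against 27.3% of all genes tested. Prdx2, Blvrb and Car2, abundant in red cells and found in other cells, had log2 fold changes of 0.08, 0.17 and 0.20, of which that of Car2 passed the threshold on p (edgeR, Benjamini-Hochberg adjusted p = 0.0937) but not that on size. Hemgn, an erythroid nuclear protein, had 0 to 7 counts per library.

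Markers of red cells and of other cell types were set beside the globins, library by library. Of 12 erythroid markers 11 were found. Their summed level was 5.53, 9.23 and 4.02 CPM in control replicates 1, 2 and 3 against 3.29, 3.24 and 4.27 CPM in deficient replicates 1 to 3, with none at 0 in all libraries. The embryonic globins summed to 18.0, 50.6 and 10.6 CPM across the control libraries against 8.46, 4.09 and 7.36 CPM in the deficient libraries, and the adult globins to 9.04, 14.6 and 10.3 CPM and to 13.0, 12.2 and 12.2 CPM. Control replicate 2 was the highest library for both and for the erythroid markers.

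Crest and neural tube markers had median log2 fold changes below 0, as had the embryonic globins. Of all genes tested, 4.88% were called lower and 27.3% had an unadjusted p under 0.05. Mesenchymal crest markers (15 of 16 tested, 9 called lower, median −0.99) summed to between 199 and 317 CPM in controls and between 125 and 155 CPM in deficient libraries. Glial and early crest markers (6 of 8 tested, 3 called lower, median −1.24) summed to between 29.4 and 67.7 CPM and between 14.5 and 24.4 CPM. Neuronal crest markers (9 of 13 tested, 2 called lower, median −0.80) summed to between 28.0 and 66.4 CPM and between 20.7 and 29.8 CPM, and neural tube markers (8 of 8 tested, 0 called by edgeR and 1 by DESeq2, 3 at an unadjusted p under 0.05, median −0.81) to between 32.2 and 53.6 CPM and between 15.6 and 36.7 CPM. The sums of the neuronal crest and of the neural tube markers overlapped between the groups, and 1 neural tube marker lay above 0. In each of these 4 lists control replicate 2 was the highest library. No marker of these lists was at 0 in every library.

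No marker of other blood cells or of endothelium was called higher by edgeR, and 1 was called lower. Calls of either kind were few among all genes tested, with 0.0573% called higher and 4.88% lower. All 12 macrophage markers lay above 0, from 0.15 to 0.25 on the log2 scale, with 0 called by edgeR, DESeq2 or limma-voom. At an unadjusted p under 0.05 there were 9 of them, against 27.3% of all genes tested. Their summed levels were 11889 to 13738 CPM in controls and 13845 to 15144 CPM in deficient libraries. Neutrophil markers (3 of 10 tested) summed to between 17.7 and 23.2 CPM and between 24.1 and 27.7 CPM, and endothelial markers (6 of 9 tested) to between 176 and 198 CPM and between 202 and 214 CPM, nearly all of it Kdr. For megakaryocyte and platelet markers (3 of 10 tested) the sums were 48.3 to 59.5 and 57.0 to 64.6 CPM, for mast cell markers (2 of 7 tested) 52.3 to 62.0 and 54.9 to 63.3 CPM, and for lymphocyte markers (0 of 10 tested) 1.38 to 1.47 and 1.04 to 2.11 CPM. Kit, on the mast cell list and also found in crest-derived melanoblasts, was called lower (log2 fold change −0.98, edgeR, Benjamini-Hochberg adjusted p = 0.0777). The part of any of these cell types in the globin values was not tested.

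**Figure D4:**
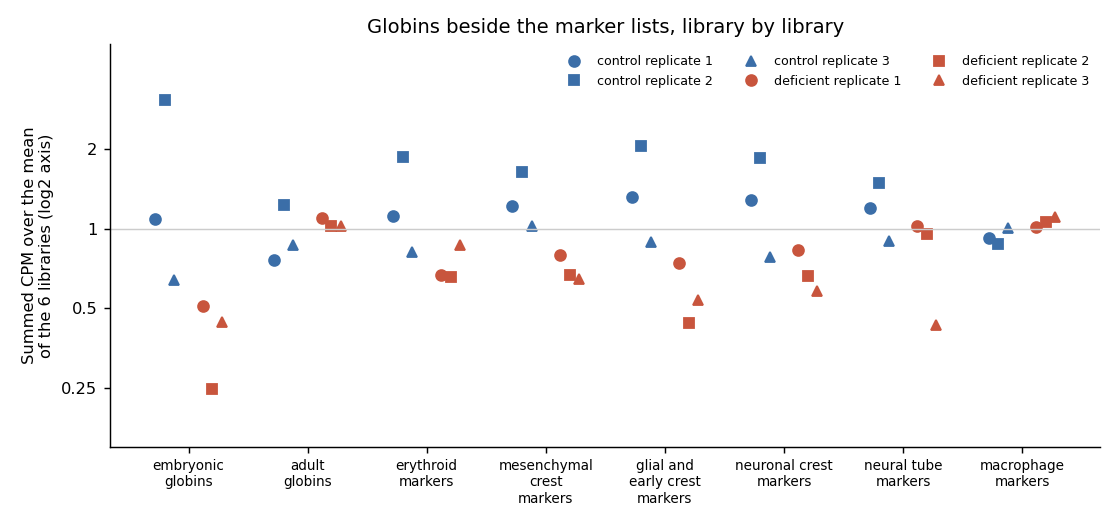
Summed CPM of the embryonic globins, the adult globins and 6 marker lists in each of 3 control and 3 deficient libraries, each divided by its mean over the 6 libraries (log2 axis). The embryonic globins, the mesenchymal crest and the glial and early crest markers are higher in every control than in every deficient library, with control replicate 2 the highest. The macrophage markers are lower in every control than in every deficient library, with control replicate 2 the lowest. They spread 1.27-fold from the lowest to the highest library.

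When the libraries were scaled to 27 crest and neural tube markers in place of TMM, the median log2 fold change of all genes was 0.89 in place of −0.018. Relative to those markers Hbb-y was at −0.98 (edgeR, Benjamini-Hochberg adjusted p = 0.0317) and Hba-x at −0.80 (adjusted p = 0.0540), both called lower, as were 0.466% of all genes tested. Hbb-bs at 1.11 and Hba-a1 at 1.02 were called higher (edgeR, Benjamini-Hochberg adjusted p = 0.0317 for both), as were 63% of all genes tested, and Alas2, at 0.50, lay below the median of all genes. This scaling sets any change shared by those markers to 0.

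The genes most like the embryonic globins were sought among 10957 named genes with a mean of at least 2 CPM, by Pearson's r of log2 CPM with the log2 summed CPM of the 3 embryonic globins over the 6 libraries. They were Lrrc8b (r = 0.997), Phactr1 (0.997), Spg20 (0.996), Neurod1 (0.995) and Tubb3 (0.995), of which Neurod1 and Tubb3 are neuronal genes. With the libraries farthest from the median left out, control replicate 2 and deficient replicate 2, r was between 0.977 and 0.999. None of the 5 was called. For the adult beta globins the first 5 were Polr3a, Cnot11, Zbed3, Exoc8 and Cenph, with r from 0.953 to 0.980. With 6 libraries and so many genes compared, high values are found by search alone, and they are given as a description.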

How the data were processed

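RNA of GFP+ NCCs from 3 control and 3 deficient samples was read as strand-specific poly(A) libraries. The authors trimmed paired-end reads (FastQC 0.11.7 and cutadapt 1.18 in the submitters' processing notes), used STAR for alignment (GRCm38) and featureCounts for counting. What was deposited is a table of raw counts, whole numbers per gene. The annotation release, the strand setting and the treatment of reads with several matches are not given in the sources used here. The 495 genes without a name in GENCODE M21 held 0.0558% to 0.0706% of the counts of a library.

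The 9 genes and the lists were chosen with earlier results of these data known. The whole table was fitted with edgeR 4.0.16 under R 4.3.3 (filterByExpr with a minimum count of 10 and a total of 15, TMM, robust quasi-likelihood fit with condition as its only term, Benjamini-Hochberg adjustment over 13961 genes). CPM were computed on TMM-normalized library sizes, and log2 CPM with a prior count of 2. Standard errors come from the quasi-likelihood F statistic. Library totals ran from 8191219 to 19808620 counts and the common biological coefficient of variation came to 12.8%. Genes named are the members, Smarcc1 and Smarcc2, in each pathway list the called genes or else the 3 with the highest mean CPM, and 5 genes most like each profile. Any other gene named was chosen after its values were seen. One gene of the lists is not reported here by itself. Alternatives were library totals, upper quartile scaling, scaling to markers, other filters, DESeq2 1.42.0, limma-voom (limma 3.58.1), a replicate block and each library left out. On simulated counts of 13738 genes for this comparison, 200 of them shifted by 2 on the log2 scale, the fit recovered 94.5% with 13 false calls. The shifted genes were drawn from all levels of at least 2 CPM, and counts were drawn independently for each gene. The recovery at the low levels of the members was not measured. Shares, sequences and figures were made with Python 3.11.15, numpy 2.4.6, pandas 2.3.3, scipy 1.17.1 and matplotlib 3.10.9.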

Additional observations from a re-analysis of the deposited data

How the results depend on the processing

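The sign of the 3 embryonic globins and of Slc4a1 was kept in all 14 alternatives each, and the differences in the globin shares moved by less than 1 SD between replicates in all of theirs. The difference in the summed level, −21.7 CPM, ran from −31.8 to −5.72 CPM with 1 library left out, the last without control replicate 2. Calls did not hold as well. With DESeq2 the log2 fold changes of the members it called were −2.08 for Hbb-y, −1.74 for Hbb-bh1 and −1.78 for Slc4a1 (3 members called), with limma-voom −1.69 for Hbb-y (1 called), and without a filter on low counts −1.67 for Hbb-bh1 and −1.71 for Slc4a1 (2 called, and 4 genes of the red cell membrane, among 1015 of 32523 genes, 3.12%). Scaling to crest and neural tube markers, which moves the median of all genes to 0.89, called 4 members (Hbb-y −0.98, Hba-x −0.80, Hbb-bs 1.11, Hba-a1 1.02), 6 transcription factors, 10 genes of haem synthesis, 6 other erythroid genes and 11 of haem uptake and breakdown. It turned Alas2 to 0.50, Epb41 to 0.20, Lrp1 to 0.84, Smarcc1 to 0.23 and Smarcc2 to 0.79, and 8854 genes of all tested were called in place of 689.

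With 1 library left out the log2 fold change ran from −2.45 to −1.30 for Hbb-y, −2.17 to −1.05 for Hbb-bh1, −2.31 to −0.81 for Hba-x, −2.29 to −0.60 for Slc4a1, −0.17 to 0.36 for Hba-a1, −0.058 to 0.20 for Hbb-bt and −0.015 to 0.042 for Slc25a39, which was also −0.0012 under the filter of 1 CPM in 3 libraries. Calls ran from 0 to 4 members, from 0 to 1 transcription factors and from 0 to 3 membrane genes, and from 0 genes of all tested (without control replicate 1) to 1245 (without control replicate 3). Leaving out control replicate 2 gave 61, and leaving out deficient replicates 1, 2 and 3 gave 1037, 264 and 17. The cause was not tested.

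Replicate numbers are shared between the groups, but deviations of same-numbered libraries correlated at 0.028, −0.034 and 0.29, so the numbers were not taken as pairs. A replicate block called 0 members and 1164 genes in all, with a log2 fold change of −1.86 for Hbb-y (edgeR, Benjamini-Hochberg adjusted p = 0.192). Depth limits the low members, since Hba-a2, Alas2 and Hbb-bh1 fell to 3, 8 and 8 counts in a library, and with 3 libraries a group 1 of them can decide a call.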
